A study of Rattus norvegicus with 26 samples.

Results

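The T cell genes described here are 8 genes chosen by name: Cd3g, Cd3d, Cd3e and Cd247, which encode chains of the T cell receptor complex, the surface receptors Cd2, Cd4 and Cd8a, and Cd52, a small surface glycoprotein of lymphocytes. Each matched 1 probe through its RefSeq accession, giving 8 of the 15168 different gene symbols that the arrays could be matched to. Levels come from thoracic aortas of males of the spontaneously hypertensive rat strain, whose blood pressure is high by inheritance. Over 4 weeks the animals received by mouth 236.25 mg per kg (low dose, n = 6 arrays) or 708.75 mg per kg (high dose, n = 6) of the herbal preparation Songling Xuemaikang capsule (SXC), 21.6 mg per kg of valsartan, which blocks the type 1 receptor of angiotensin II (n = 6 arrays, where the labels state 8 rats), or 7.5 mL per kg of saline (n = 8). No age is stated, no group of another strain is included, and per the labels RNA was extracted separately from each shredded aorta. In such bulk tissue, fewer cells of a type and less RNA per cell cannot be told apart.

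T cells recognise peptides on MHC molecules through a receptor whose antigen-binding chains cannot signal by themselves. The CD3 gamma, delta and epsilon chains and the zeta chain encoded by Cd247 carry the signal into the cell. CD4 and CD8 are coreceptors that bind MHC class II and class I, and CD2 is an adhesion receptor that binds CD48 in rodents. In the rat, macrophages also carry CD4. In arteries, T cells are known mainly from the outer layer and the fat around the vessel, and their number there has been linked with high blood pressure in rodents.

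Cd3g, Cd3d and Cd3e lie next to each other on rat chromosome 8, and the starts of Cd3g and Cd3d, which point away from each other, are 1601 bases apart in the GRCr8 build. The 250 bases before the annotated start are shown for these 2 neighbours, because their levels differed in how they varied over the arrays, and for Cd52, because it had the largest changes of the 8 genes. They come from RefSeq (GRCr8), which holds such windows for 7 of the 8 genes, and are written 5' to 3' on the gene's own strand: Cd3g at chr8:54183919-54184168 (minus strand), Cd3d at chr8:54185269-54185518 (plus strand) and Cd52 at chr5:151605097-151605346 (minus strand). Capitals mark the letters AGGAAG (the core of ETS family motifs) and CANNTG (E box), on either strand.
Cd3g: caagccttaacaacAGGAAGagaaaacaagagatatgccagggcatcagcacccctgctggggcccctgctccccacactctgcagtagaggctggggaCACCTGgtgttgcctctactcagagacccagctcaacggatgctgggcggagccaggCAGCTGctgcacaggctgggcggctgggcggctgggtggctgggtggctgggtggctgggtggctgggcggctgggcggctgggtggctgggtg
Cd3d: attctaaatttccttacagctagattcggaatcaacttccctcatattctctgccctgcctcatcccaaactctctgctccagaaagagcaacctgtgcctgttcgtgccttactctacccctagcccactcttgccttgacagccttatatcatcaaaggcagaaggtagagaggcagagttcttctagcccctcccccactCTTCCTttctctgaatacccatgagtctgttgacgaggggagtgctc
Cd52: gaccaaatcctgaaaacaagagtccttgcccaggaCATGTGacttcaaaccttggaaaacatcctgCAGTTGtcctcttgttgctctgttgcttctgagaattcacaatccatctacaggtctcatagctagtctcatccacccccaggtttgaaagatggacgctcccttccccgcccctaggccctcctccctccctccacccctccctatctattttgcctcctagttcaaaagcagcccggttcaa
The letters AGGAAG occurred 1 time each in the Cd3g and Cd3d windows and 0 times in the Cd52 window, and 29.5% of all 33469 windows hold them. The E box occurred 2 times in the Cd3g window, 0 times in the Cd3d window and 2 times in the Cd52 window, against a share of 65.5% of all windows. The letters TGTGGT, the core of RUNX motifs, and TATAAA were in none of the 3 windows; 14.5% and 12.9% of all windows hold them. The unit GGCTGGG was present 11 times in the Cd3g window, mostly in its part nearest the start, and 0 times in the Cd3d window. The Cd3g window has a GC content of 66.4%, against 49.6% for Cd3d and a median of 51.2% over all windows.

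A level is the log2 of a probe's intensity minus the 75th percentile of its array, so that 0 is a bright probe and each unit is a doubling. The scanner software marks whether a spot is well above background, and a probe entered the test where at least 6 of 26 arrays had it so marked. The share of probes so marked was between 70.0% and 77.0% for low-dose SXC, 28.7% to 79.3% for the high dose, 32.4% to 56.5% on the valsartan arrays and 67.3% to 76.2% on the saline arrays. All 6 arrays of the valsartan group and 4 of 6 with high-dose SXC (replicates 3 to 6) had a detector gain of 323 to 325 V, called lower here, and the remaining 16 arrays one of 353 to 354 V. All saline arrays were scanned on 1 day, 82 days after the last treated array, so scan day and treatment cannot be told apart in a comparison with saline. Saline arrays 1 and 5, 2 and 6, and 3 and 7 deviated from their slide means together (r = 0.71, 0.66 and 0.87 across probes), so n = 8 may overstate the independent saline samples.

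The 8 genes did not behave as 1 group. Cd3g and Cd3d were well above background on 26 of 26 arrays, Cd4 on 17, Cd52 on 9, Cd247 on 8, Cd2 on 2, Cd3e on 1 and Cd8a on 0. Cd3e, Cd2 and Cd8a, which with Cd3g and Cd3d are defining markers of T cells, were thus at or near background in this tissue, and levels of the other probes are given as gene levels, not as amounts of T cells. The 5 genes that passed the filter were Cd3g, Cd3d, Cd247, Cd4 and Cd52; Cd247 passed through its 8 saline arrays alone and Cd52 through 8 saline arrays and 1 low-dose array. By limma with Benjamini-Hochberg adjustment over the 23744 probes tested, 0 of the 5 were higher and 2 lower with low-dose SXC against saline, 2 were higher and 1 lower with high-dose SXC, and 1 was higher and 1 lower with valsartan. Over all probes tested, 39.6%, 57.1% and 58.4% passed in these 3 comparisons (22.5%, 35.7% and 33.2% higher, 17.1%, 21.4% and 25.2% lower). The share of the 5 genes that passed is near that of all probes with both SXC doses and below it with valsartan. By direction, the low-dose share was above that of all probes for lower calls and below it for higher calls. The median log2 change of the 5 genes was -0.24, 0.56 and 0.17, against 0.09, 0.25 and 0.19 over all probes tested. The lower calls were Cd247 and Cd52 with low-dose SXC and Cd52 in the other comparisons; both genes entered the test through the saline arrays, where they were high, so these counts are a description and support nothing. The 3 comparisons share the saline arrays.

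**Figure D1:**
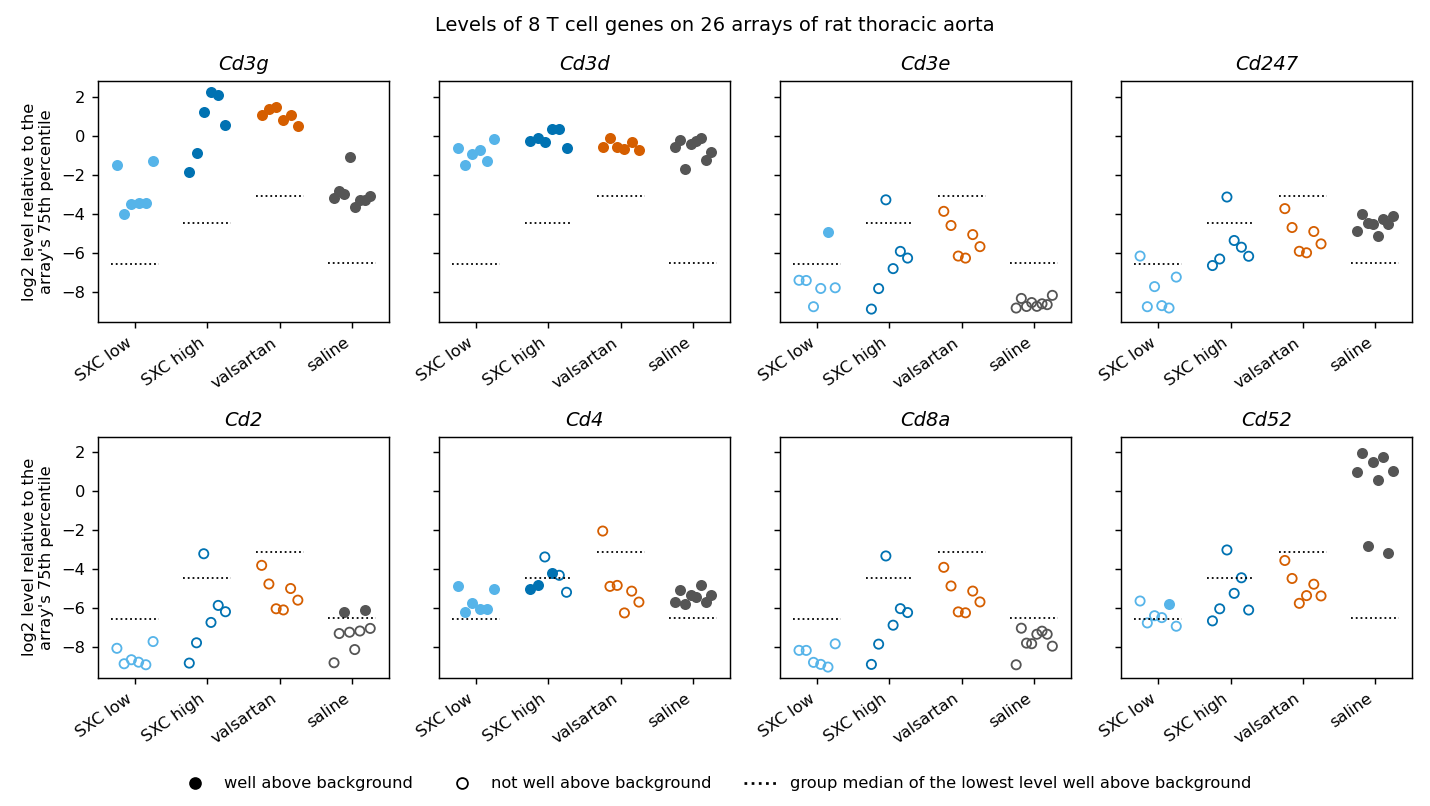
Level of each of the 8 genes on every array (log2 relative to the array's 75th percentile), by group, with filled points for arrays where the probe was well above background. Cd3g was high on all valsartan arrays and on 4 of 6 high-dose arrays, Cd3d lay in 1 band in all groups, Cd52 was above background on all 8 saline arrays, and the open points of Cd3e, Cd2 and Cd8a lay below the dotted line, the group median of the lowest level well above background, on most arrays.

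Cd3g, the gamma chain, was the member with the largest rise. Its level was -4.01 at the lowest, -3.46 at the median and -1.30 at the highest on the low-dose arrays, -1.84, 0.89 and 2.25 on the high-dose arrays, 0.51, 1.06 and 1.49 on the valsartan arrays, and -3.63, -3.15 and -1.06 on the saline arrays. The valsartan arrays lay above every saline array, while the lowest high-dose array lay within the saline range. The log2 change was 3.49 ± 0.54 (SE) for high-dose SXC against saline, or 11.2-fold (limma, adjusted p = 5.37e-06), and 3.97 ± 0.54 for valsartan against saline, or 15.7-fold (adjusted p = 8.37e-07). It was 0.05 ± 0.54 for low-dose SXC against saline (adjusted p = 0.951). The mean saline level includes replicate 4, at -1.06, where 1 of 10 spots was left after spots marked as outliers were dropped.

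The level of Cd3g differed between scan days within a treatment. High-dose replicates 1 and 2, at the higher gain on scan day 1, had -1.84 and -0.88, and replicates 3 to 6, at the lower gain, had 1.22, 2.25, 2.10 and 0.56. Low-dose replicates 1 and 6, also scanned on day 1, had -1.50 and -1.30, against -4.01, -3.49, -3.44 and -3.47 for replicates 2 to 5 on day 2. Against low-dose SXC, the change was 3.44 ± 0.57 for high-dose SXC (adjusted p = 2.72e-04) and 3.92 ± 0.57 for valsartan (adjusted p = 4.17e-05). Within scan day 1, the 2 high-dose arrays averaged -1.36 and the 2 low-dose arrays -1.40, a difference of 0.04. With scan day as a block the changes were 0.04 for high-dose SXC and 0.20 for valsartan, both against low-dose SXC, and neither was called. Valsartan and low-dose SXC share no scan day, so the 0.20 rests on the high-dose arrays of days 1 and 3, which link them. With the gain as a block, the change against saline was 1.56 for high-dose SXC (adjusted p = 0.055) and 1.08 for valsartan (adjusted p = 0.405). The valsartan arrays all have the lower gain and the saline arrays all the higher, so the valsartan value under this block rests on the split within the high-dose group. On the same scan day 3, valsartan averaged 1.05 (n = 6) and high-dose SXC 0.89 (n = 2), a difference of 0.16, and over all arrays valsartan and high-dose SXC differed by 0.48 ± 0.57 (adjusted p = 0.709).

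**Figure D2:**
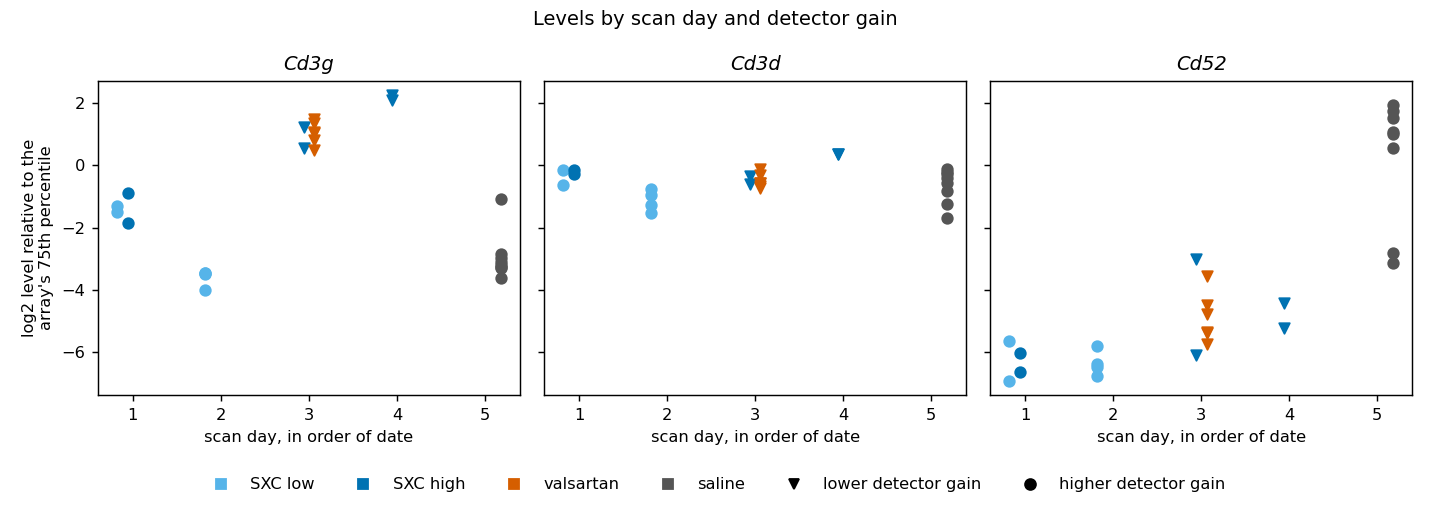
Level of Cd3g, Cd3d and Cd52 (log2 relative to the array's 75th percentile) against scan day, with colours for groups and triangles for the lower detector gain. Cd3g averaged -1.36 in high-dose and -1.40 in low-dose arrays on day 1 and was highest on the lower-gain arrays of days 3 and 4, whereas Cd3d varied less than Cd3g between days and Cd52 was well above background on all arrays of day 5, which holds the saline arrays, and on 1 low-dose array.

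Cd3d, the delta chain, was bright in every group and varied less. Its level was -1.52, -0.84 and -0.14 (lowest, median, highest) on the low-dose arrays, -0.60, -0.20 and 0.37 on the high-dose arrays, -0.73, -0.56 and -0.10 on the valsartan arrays, and -1.69, -0.48 and -0.10 on the saline arrays. The 4 ranges overlapped. High-dose SXC was higher than saline by 0.56 ± 0.24 (adjusted p = 0.0447) and than low-dose SXC by 0.77 ± 0.25 (adjusted p = 0.0289), and the other comparisons were not called. The call against saline was lost under 10 of 14 other processing settings and in 7 of the 14 fits that leave out 1 array, with values from 0.41 to 0.66 over these fits. The call against low-dose SXC was lost in 5 of 12 such fits, where the change was 0.64 to 0.92, and with scan day as a block the change was 0.18. The lowest saline arrays were replicates 3 and 7, at -1.69 and -1.24. After subtracting group means, the correlation of Cd3d with Cd3g over the 26 arrays was 0.45, a description of arrays that share slides and scan days.

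Cd247, the zeta chain, was well above background on all 8 saline arrays and on none of the 18 treated arrays. The saline levels ran from -5.13 to -4.00, with a median of -4.50. The treated arrays have only a bound, which differed between groups because the lowest level well above background had a median of -6.56 on the low-dose arrays, -4.46 on the high-dose arrays, -3.11 on the valsartan arrays and -6.51 on the saline arrays. Cd247 was lower with low-dose SXC than with saline, by at least 3.72-fold (group means of -7.91 and -4.49, adjusted p = 4.61e-06), and the 2 groups did not overlap. Since Cd247 entered the test through saline alone, this p is no independent evidence of a fall. This call was lost with normexp background correction, where the change was -0.37 (adjusted p = 0.184). Against saline, the fitted change was -1.07 ± 0.49 for high-dose SXC (adjusted p = 0.0658) and -0.64 ± 0.49 for valsartan (adjusted p = 0.267). No fold can be given, since the saline mean lies below the level that could have been detected on these arrays. Both were called lower with quantile normalization (-1.85 and -1.72) and with the authors' deposited log2 values (-1.93 and -1.84). With normexp, valsartan was called higher (0.81), so no direction is given for these 2 comparisons. Cd247 also passed the test between high-dose and low-dose SXC and between valsartan and low-dose SXC, where both groups were below background; these calls carry no fold. Within the higher gain, 2 high-dose arrays averaged -6.49, against -4.49 for the 8 saline arrays.

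Cd4 was faint. It was well above background on 6 of 6 low-dose arrays, 3 of 6 high-dose arrays, 0 of 6 valsartan arrays and 8 of 8 saline arrays. Its levels were -6.17, -5.86 and -4.87 (lowest, median, highest) with low-dose SXC, -5.18, -4.56 and -3.37 with high-dose SXC, -6.24, -5.00 and -2.04 with valsartan, and -5.80, -5.36 and -4.83 with saline. Cd4 passed the test in 0 of 6 comparisons by limma, with 1 of 6, high-dose against low-dose SXC, under 0.05 before adjustment. Against saline the changes were -0.24 ± 0.44 for low-dose SXC, 0.91 ± 0.44 for high-dose SXC and 0.59 ± 0.44 for valsartan, and the last 2 turned negative with quantile normalisation, at -0.41 and -1.15, so no direction is given for Cd4. With normexp background correction they were 1.00 and 1.35 and passed the test (adjusted p = 6.98e-04 and 1.72e-05).

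The level of Cd4 minus the mean of Cd3g and Cd3d on the same array does not depend on the array's 75th percentile. It averaged -4.71 ± 0.78 (SD, n = 6) with high-dose SXC and -3.60 ± 0.44 (SD, n = 8) with saline, a difference of -1.11 (2-sided exact permutation test, p = 0.005, adjusted p = 0.01 over 2 comparisons). With low-dose SXC it averaged -3.76 ± 0.31 (SD, n = 6), a difference from saline of -0.16 (exact p = 0.473). The 2 high-dose arrays at the higher gain averaged -4.14, a difference from saline of -0.54. Cd4 was not above background on 3 of the 6 high-dose arrays, so those values rest on an unmeasured Cd4 level, and the difference also holds the change of Cd3g itself; it is not a measured change of Cd4. Valsartan was not compared, with Cd4 above background on 0 of 6 arrays.

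Cd52 had the largest changes of the 8 genes. Its saline levels were 0.99, 1.95, -2.80, 1.53, 0.56, 1.76, -3.15 and 1.07 in replicates 1 to 8, all well above background. It was well above background on 1 of 6 low-dose arrays (replicate 5, at -5.78), 0 of 6 high-dose arrays and 0 of 6 valsartan arrays. With low-dose SXC its mean was -6.32, against 0.24 with saline, a fitted log2 change of -6.56 ± 0.70 (adjusted p = 6.41e-08). Since 5 of the 6 low-dose arrays did not measure Cd52, the size of this change is not a measured fold. It was at least 24.2-fold lower with high-dose SXC than with saline (group means of -5.24 and 0.24, adjusted p = 3.76e-07) and at least 10.3-fold lower with valsartan (-4.87 and 0.24, adjusted p = 9.98e-07). All low-dose and valsartan arrays lay below every saline array; 1 high-dose array, replicate 3, at -3.01 and not above background, lay between the 2 lowest saline arrays. The fall was called under all 13 other settings that could be run in each of the 3 comparisons, and in every fit that leaves out 1 array. The filter of at least 20 arrays drops Cd52, and no setting separates scan day from treatment in these comparisons. Cd52 entered the test through the saline arrays, where it was high, so these p and calls are no independent evidence of a fall. Within the higher gain, the 2 high-dose arrays averaged -6.34, against 0.24 for the 8 saline arrays.

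Saline replicates 3 and 7, where Cd52 was lowest and Cd3d was lowest, also stood apart in genes of other cells. The log2 of the summed level of 6 red cell genes was 7.91 and 7.87 on these arrays and 8.87 to 9.35 on the other 6, and that of 16 macrophage markers was 5.12 and 5.18 against 5.57 to 6.03. The log2 of the summed level of 5 fat cell markers was highest on these arrays, at 8.02 and 7.82, against 2.98 to 7.25 on the other 6. The part of these cells in the levels of Cd52 and Cd3d was not tested.

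**Figure D3:**
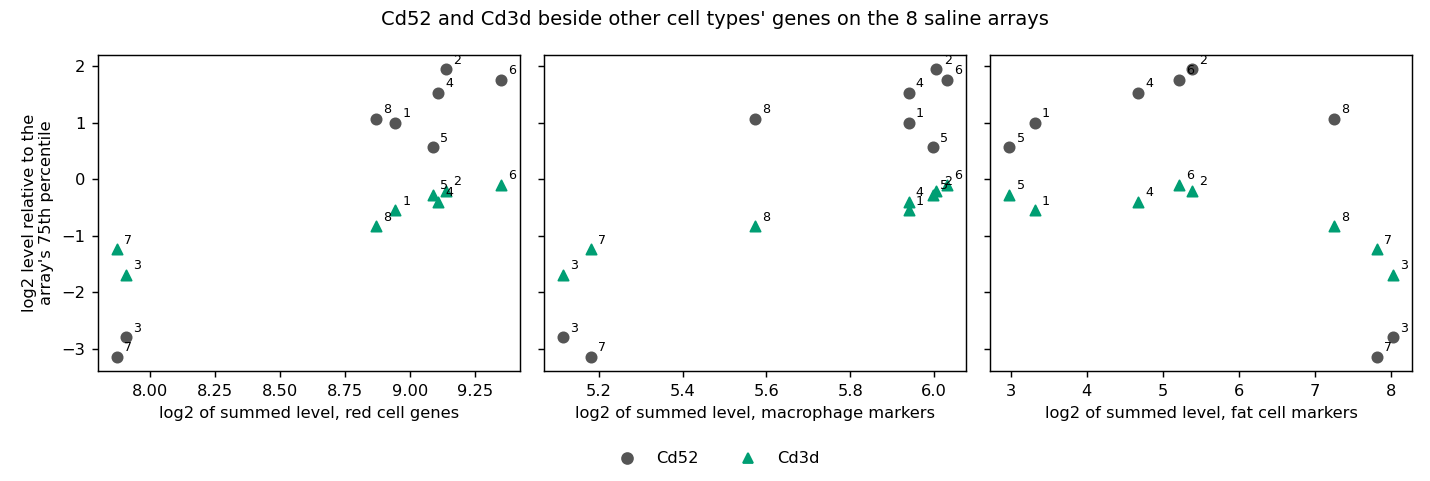
Levels of Cd52 (circles) and Cd3d (triangles) on the 8 saline arrays, numbered by replicate, against the log2 of the summed level of red cell genes, macrophage markers and fat cell markers. Replicates 3 and 7 had the lowest Cd52 and Cd3d, the lowest red cell and macrophage sums and the highest fat cell sums.

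Cd3e, Cd2 and Cd8a were too dim to compare. Cd3e, the epsilon chain, was well above background on low-dose replicate 5 alone, at -4.94. Cd2 was above background on saline replicates 3 and 7 alone, at -6.21 and -6.07, and Cd8a on no array. On each high-dose array the 3 probes lay within 0.07 to 0.17 of one another, and on each valsartan array within 0.10 to 0.25, although their shared level ran from -8.86 to -3.27 over the high-dose arrays and from -6.20 to -3.86 over the valsartan arrays. The spread among the 3 probes was wider on the low-dose arrays (0.12 to 4.08) and on the saline arrays (0.10 to 2.60). They were not tested, and a change below these limits was not detectable at this signal.

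Between high-dose and low-dose SXC, 3 of the 5 tested genes passed the test: Cd3g and Cd3d were higher with the high dose, and Cd247, below background in both groups, has no measured direction. Of all probes, 22.2% passed (16.8% higher, 5.41% lower). Between valsartan and low-dose SXC, 2 of 5 passed: Cd3g was higher with valsartan, and Cd247 was again below background in both groups. Of all probes, 25.2% passed (13.6% higher, 11.5% lower). Valsartan and high-dose SXC differed in 0 of 5 by limma at adjusted p under 0.05, where 1.37% of all probes passed (0.265% higher, 1.1% lower). That count of 325 probes was unstable, at 92 to 886 with 1 array left out. At an unadjusted p under 0.05, 0 of 5 passed as well, and the share of all probes was not counted at that threshold. With scan day as a block, 0 of 5 passed in the comparisons of high-dose SXC and of valsartan with low-dose SXC. Of all 23744 probes, 0 and 3 passed with this block, so the 0 of 5 is not particular to these genes.

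**Figure D4:**
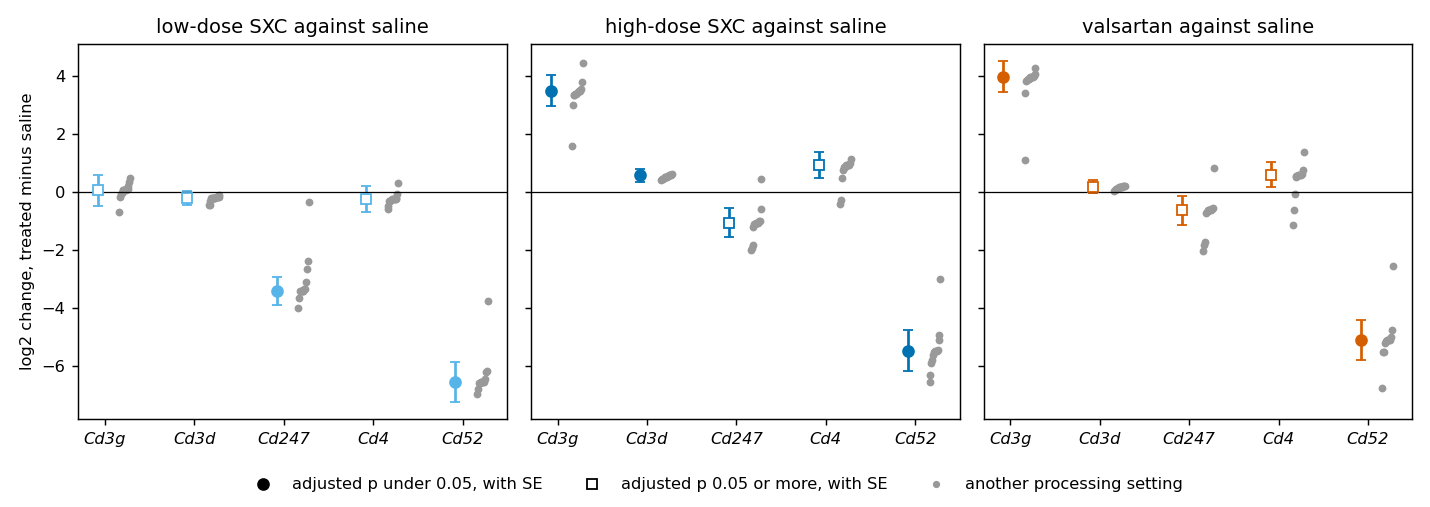
Log2 change of the 5 tested genes, treated minus saline, with standard errors (filled circles where adjusted p is under 0.05, open squares otherwise), and grey points for the same change under other processing settings. The fall of Cd52 stayed negative under every setting shown, Cd3g with high-dose SXC ran from 1.56 to 4.45, and Cd4 and Cd247 crossed 0 with high-dose SXC and with valsartan.

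Other T cell genes were counted from lists of signalling, receptor, transcription factor, effector and homing genes. In all list counts below, rose and fell mean called higher and called lower by limma. Some of these calls rest on groups where few or no arrays measured the gene. Scan day, and for valsartan also the gain, cannot be told apart from treatment in these comparisons with saline. Of 10 tested kinases and adaptors of T cell receptor signalling, 2 rose and 4 fell with low-dose SXC, 4 rose and 4 fell with high-dose SXC, and 4 rose and 3 fell with valsartan, all against saline. Sit1, an adaptor that binds inhibitory phosphatases, rose by 1.58 ± 0.52, 4.52 ± 0.52 and 4.38 ± 0.52 in these comparisons (adjusted p = 0.0161, 7.30e-08 and 1.06e-07). The 2 high-dose arrays at the higher gain averaged -1.68 for Sit1, against 1.54 for the 4 at the lower gain and -4.06 for saline. Fyn, a kinase of the Src family, fell by 0.54 ± 0.19 with low-dose SXC and 0.44 ± 0.19 with high-dose SXC (adjusted p = 0.026 and 0.0496). With high-dose SXC 3 of 6 arrays measured Fyn, so the size of 0.44 is fitted and not fully measured. With valsartan Fyn was above background on 0 of 6 arrays and, although called, has no fold. Lck was called higher with valsartan, also with 0 of 6 arrays above background, and has no measured direction. Skap1, called higher with valsartan as well, was above background on 1 valsartan array and 0 saline arrays.

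Of 8 tested coreceptors and costimulatory receptors, 2 rose and 2 fell with low-dose SXC, and 4 rose and 2 fell with high-dose SXC. With valsartan, 3 were called higher and 2 lower. Among those called higher, Ctla4 and Lag3 were above background on 0 valsartan arrays, so their calls with valsartan have no measured direction. Cd7, a surface marker of T and NK cells, had log2 changes of -2.48 ± 0.37 with low-dose SXC and -2.48 ± 0.37 with high-dose SXC, where 2 of 6 arrays measured it, both called, and was at least 1.68-fold lower with valsartan. Lag3, an inhibitory receptor, was above background on 5 of 6 high-dose arrays, 2 low-dose arrays, 0 valsartan arrays and 0 of 8 saline arrays. It was at least 10.9-fold higher with high-dose SXC than with saline (limma, adjusted p = 2.64e-07). Since Lag3 passed the filter through the high-dose arrays, where it was high, this p is no independent evidence of a rise. Its mean level was -2.63 on the 2 higher-gain high-dose arrays and -3.20 on the 4 others. Of 4 tested transcription factors, 2 rose and 1 fell with each SXC dose, and 3 rose and 1 fell with valsartan. Foxp3, the factor of regulatory T cells, rose by 2.11 ± 0.37, 3.78 ± 0.37 and 3.01 ± 0.37 with low-dose SXC, high-dose SXC and valsartan, with mean levels of -2.93, -1.27 and -2.03 in these groups and -5.05 in saline. Tbx21, the factor of type 1 helper and cytotoxic cells, rose by 2.30 ± 0.35, 2.16 ± 0.35 and 2.36 ± 0.35. Its mean levels were 5.33, 5.19 and 5.39 in these groups and 3.03 in saline, brighter than any member in any group. Which cells gave this signal was not tested.

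Of 7 tested cytotoxic genes, 1 rose and 3 fell with low-dose SXC, 2 rose and 0 fell with high-dose SXC, and 1 rose and 1 fell with valsartan. Cst7, a cystatin of cytotoxic cells, rose by 2.25 ± 0.38, 4.44 ± 0.38 and 4.54 ± 0.38, and Gzmk, a granzyme, was at least 3.37-fold lower with low-dose SXC (adjusted p = 1.95e-05); it was above background on 8 saline arrays and 0 treated arrays, and so entered the test through saline alone. Of 11 tested cytokine and homing receptors, 3 rose and 2 fell with low-dose SXC, 5 rose and 2 fell with high-dose SXC, and 5 rose and 2 fell with valsartan. Il12rb2, a subunit of the interleukin 12 receptor, rose by 0.96 ± 0.27, 2.04 ± 0.27 and 1.78 ± 0.27. Among the genes called higher with valsartan, Il2ra was above background on 0 valsartan arrays and Ccr4 on 1, so neither is a measured rise. The cytokine genes Ifng, Il2, Il4 and Il17a were well above background on 0 of 26 arrays.

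Genes of the coreceptors' and CD2's binding partners, pan-leukocyte markers, macrophage markers and red cell genes were mostly lower than in saline, and so were genes of cells of the vessel wall and fat. Of 5 tested endothelial markers, 4 fell and 1 rose in each comparison with saline, with median log2 changes of -2.56, -2.89 and -2.78 for low-dose SXC, high-dose SXC and valsartan. Of 5 tested fat cell markers, 4, 3 and 4 fell and 0 rose (medians of -2.40, -1.57 and -2.98). Of the 8 tested ligand genes, which encode MHC chains, beta-2 microglobulin and the CD2 ligand CD48, 8 fell with low-dose SXC, 7 with high-dose SXC and 6 with valsartan, and 0 rose. RT1-Da, an MHC class II alpha chain, fell by 2.97 ± 0.25, 3.47 ± 0.25 and 3.95 ± 0.25 (adjusted p = 1.5e-09, 6.7e-11 and 6.37e-12). With valsartan 3 of 6 arrays measured RT1-Da, so the size of 3.95 is fitted and not fully measured. Of 9 tested pan-leukocyte markers, 7, 6 and 6 fell and 0, 1 and 1 rose, and Ptprc, which encodes CD45, fell by 2.32 ± 0.24 with low-dose SXC and 2.81 ± 0.24 with high-dose SXC and was at least 5.31-fold lower with valsartan. The marker that rose was Cd37, a tetraspanin of B cells, by a fitted 3.99 ± 0.53 with high-dose SXC and 4.00 ± 0.53 with valsartan; 5 of 6 high-dose, 4 of 6 valsartan and 2 of 8 saline arrays measured it, so these sizes rest on a mostly unmeasured saline level. Of 15 tested macrophage markers, 12, 13 and 13 fell and 0 rose, and 6 of 6 red cell genes fell in each comparison. The median log2 change of the macrophage list was -2.03 with low-dose SXC, -1.91 with high-dose SXC and -2.33 with valsartan, against 0.09, 0.25 and 0.19 over all probes tested.

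The summed level of 16 macrophage markers, relative to the 75th percentile, was 45.7 to 58.8 on low-dose arrays, 20.2 to 41.2 on high-dose arrays, 10.1 to 24.1 on valsartan arrays and 34.7 to 65.3 on saline arrays, and that of 6 red cell genes was 8.93 to 31.3, 4.13 to 19.6, 4.68 to 17.9 and 234 to 651. Of 7 measured B cell markers, Pax5 was above background on all 26 arrays and Cd22, a defining one, on 1. Of 6 NK cell markers, Klrk1 was above background on all 26 arrays, Ncr1 on 1 and Klrc1 on 0. Their part in the results for Cd52, Cd3g and Cd247 was not tested.

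**Figure D5:**
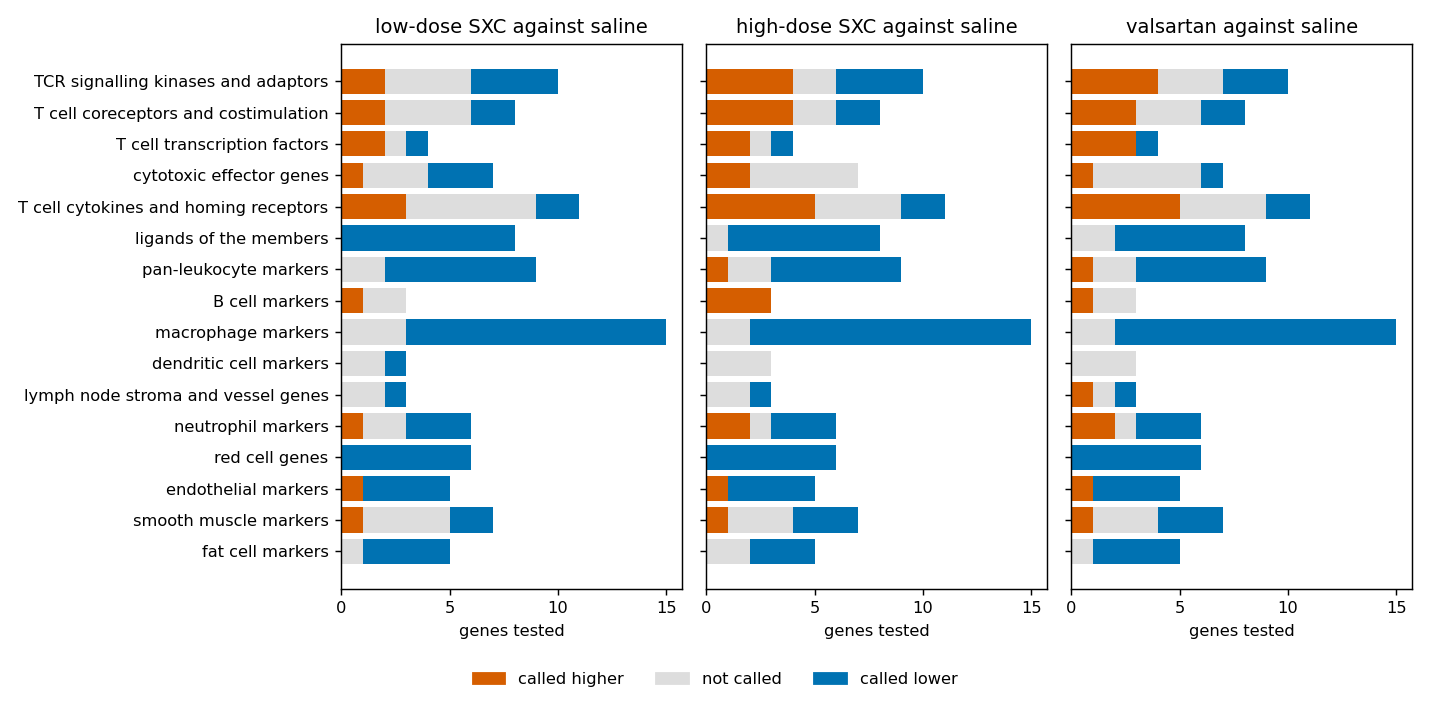
Number of tested genes in each list called higher, called lower or not called against saline (limma, adjusted p under 0.05), in 3 comparisons, for lists with at least 3 tested genes. Macrophage markers, red cell genes, ligands, pan-leukocyte, endothelial and fat cell markers were mostly lower, and the lists of T cell genes held calls in both directions.

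The genes most like each tested member were taken as the 3 with the highest correlation of levels over the 26 arrays after group means were subtracted, among 12222 named genes, and are a description of arrays that share slides, scan days and gain. For Cd3g they were the olfactory receptor Or8g34b (r = 0.96), the tubulin Tuba3a (0.95) and the aminoacylase Acy3 (0.95), which, like Cd3g, had their highest group means with valsartan and next with high-dose SXC. For Or8g34b, the group means were -2.70 with low-dose SXC, 0.63 with high-dose SXC, 1.49 with valsartan and -4.59 with saline. For Cd52 they were the carbonic anhydrase Car2 (0.94), the red cell membrane gene Rhag (0.93) and the adducin Add2 (0.93). For Cd3d they were Rhd, a red cell antigen (0.85), Bves (0.84) and Siae (0.84). For Cd247 they were Il21r, the interleukin 21 receptor (0.90), the granzyme Gzma (0.90) and Sstr3 (0.90), and for Cd4 Or6d12b (0.95), Ptges (0.95) and Or14j5e (0.93), 2 olfactory receptors and a prostaglandin synthase. Among the members themselves, the closest pair was Cd247 and Cd4 (r = 0.76), followed by Cd3d and Cd52 (0.57). Cd247, Cd4 and Cd52 were above background on 8, 17 and 9 of 26 arrays, and on the other arrays their values follow the array's background, so neither these correlations nor the genes listed for these 3 can be read as likeness of expression.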

How the data were processed

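RNA of each aorta was hybridised to a 1-colour Agilent rat array (26 arrays). The deposited intensity per spot is the processed signal of Agilent Feature Extraction 11.0.1.1, already background-subtracted, per the file headers. The authors also deposited a log2 table of the same arrays, with medians of 5.75 to 5.76; its scaling and normalization are not stated by the labels or headers, and it served as an alternative and not for the main values.

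Control spots and spots marked as outliers were left out. Levels are the mean log2 intensity over a probe's spots minus the array's 75th percentile over spots. Of 30367 probes, 23744 were well above background (at least 0.5 of their spots) on at least 6 arrays and were tested in 1 fit over 26 arrays with limma 3.58.1 in R 4.3.3 (lmFit, eBayes with a trend, no covariates, Benjamini-Hochberg per comparison, call at adjusted p under 0.05). The number of arrays and the signal over background limit the precision; standard errors had a median of 0.30 in comparisons with saline and 0.33 in the others. The fit was checked on simulated data. Symbols came from matching unversioned accessions to the RefSeq table of GRCr8 (18005 probes with 1 symbol, 12362 with none).

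Where a group had a probe well above background on no array, the fold is a bound ("at least"): the brighter group's mean against the dim group's mean of, per array, the higher of the probe's level and the lowest level well above background. Groups follow the labels, and each treated group was compared with saline and with the others. The genes, lists and tests were chosen with earlier results of these data known. All 8 genes are named; of other lists, up to 4 genes with the smallest p against saline, and those called in the opposite direction, may be named. Some genes of these lists are counted but not reported here by name. The sequences to show were changed after the data were seen, from proteins, which were not used here, to promoters. Replicate numbers did not pair arrays across groups (at most 2 of 6 same-numbered pairs correlated over 0.1). Alternatives were the normalization, background correction, filter, slide, scan day, gain or replicate number as a block, and single arrays left out.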

Additional observations from a re-analysis of the deposited data

Results flagged for a closer look

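In 4 of 32 sets of 1 gene in 1 group, 1 array stood apart from the rest of its group by Dixon's test; chance gives about 1 in 20. Cd3g was -1.06 in saline replicate 4, where the next highest array had -2.84 and 1 of 10 spots was left after outlier spots were dropped. Cd3e was -4.94 in low-dose SXC replicate 5, against -7.41 in the next, and this was the array on which Cd3e was well above background. Cd247 was -3.14 in high-dose SXC replicate 3, against -5.37 in the next, and Cd4 was -2.04 in valsartan replicate 1, against -4.83 in the next. Neither was above background there, and these arrays had the lowest shares of probes above background in their groups, 28.7% and 32.4%.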

How the results depend on the processing

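Over the settings and left-out arrays tried, 569 results for single genes kept their direction and side of the threshold, 35 lost a call, 13 gained one and 25 changed sign. The fall of Cd52 against saline was called under every setting that could be run. Since Cd52 entered the test through the saline arrays, this is a description and supports nothing. Of the 5 genes, the number called between high-dose and low-dose SXC was 3, and was 1 with quantile normalization, 1 with the authors' deposited log2 values, 0 with scan day as a block and 0 with gain as a block. Between valsartan and low-dose SXC it was 2, and was 1 with the authors' values, 1 when at least 20 arrays had to be above background, 0 with scan day and 0 with gain as a block. Of all 23744 probes, 3 passed in this comparison with scan day as a block and 3 with gain as a block. Against saline it was 2 for low-dose SXC, and 1 with normexp and 0 with the 20-array filter, which leaves Cd3g and Cd3d alone; for valsartan it was 2, and 4 with normexp, 1 with that filter and 1 with gain as a block. Leaving out 1 array gave 2 to 4 for high-dose SXC against saline, 2 to 2 for low-dose SXC and for valsartan, 2 to 3 between SXC doses, 2 to 2 for valsartan against low-dose SXC and 0 to 0 for valsartan against high-dose SXC.

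Signs changed as follows. With quantile normalization, Cd4 was -0.41 and -1.15 for high-dose SXC and valsartan against saline, and -0.11 and -0.84 for these against low-dose SXC. With the authors' values it was -0.30 and -0.63 against saline and -0.30 for valsartan against low-dose SXC. With normexp, Cd247 was 0.43 for high-dose SXC and 0.81 for valsartan against saline, and Cd4 was 0.29 for low-dose SXC against saline and 0.36 for valsartan against high-dose SXC. Cd4 minus the CD3 chains was 0.28 for low-dose SXC against saline with normexp; for high-dose SXC it stayed between -2.31 and -0.74 under 4 settings and between -1.29 and -0.95 with 1 array left out, and for low-dose SXC it was -0.30 to -0.06 with 1 array left out. Cd4 was -0.52 for valsartan against low-dose SXC with scan day as a block and -0.071 for valsartan against saline with gain as a block. In neither comparison do the 2 groups share a scan day or gain level, so both values rest on the high-dose arrays. Cd3g for low-dose SXC against saline was -0.19 with the percentile over probes detected on all arrays, -0.039 with the replicate block, -0.066 with outlier spots kept, -0.68 without high-dose replicates 1 and 2 and low-dose replicates 1 and 6, and -0.26 to 0.32 with 1 array left out. Cd3g for valsartan against high-dose SXC was -0.48 with gain as a block and -0.48 without those 4 arrays, and -0.00037 to 0.82 with 1 array left out. The settings that keep outlier spots, leave out 4 arrays or take the percentile over probe averages were chosen after seeing the data. The causes were not tested.

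Replicate numbers are shared only as names, and with the replicate block Cd3d for high-dose SXC against saline was 0.43 (adjusted p = 0.159). Over all probes, 9408, 13549 and 13876 were called against saline for the low dose, the high dose and valsartan, and 8090, 12447 and 12584 with the replicate block. With gain as a block 6505 and 3256 were called for high-dose SXC and valsartan, and 5709 for low-dose SXC with saline as 3 averages. Between high-dose and low-dose SXC the 5273 calls became 10770 with normexp, 1617 with slide and 0 with scan day or gain as a block. Between valsartan and high-dose SXC the 325 calls became 17 with normexp, 4 with slide and 1423 with gain as a block, and 92 to 886 with 1 array left out. The share of higher calls was 62.5% for high-dose SXC and 56.8% for valsartan against saline, and 41.7% and 38.1% with quantile normalization. The alternative of the dimmest probe was not run, since each gene has 1 probe, and scan day as a block gives no comparison with saline.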
